A study of Cavia porcellus with 8 samples.

Results

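Lipoprotein lipase (LPL, feature M15483) and fatty acid binding protein 5 (FABP5, also called E-FABP, feature EU264005) are 2 of the 13269 features measured in guinea pig cochleae 7 days after insertion of an electrode. Both were chosen by their measured values, since they stand among the genes that the study listed as raised by insertion of the normal electrode compared with the control. The comparison of normal electrode and control was therefore not tested here and is given as a description. The same holds for the comparison of dexamethasone electrode and control, which shares the control arrays. One signal per gene was available from each of 3 animals with a normal electrode (NOR), 3 animals with a dexamethasone-eluting electrode (DEX) and 2 animals without surgery (CNT). All were male Hartley guinea pigs, 8 weeks old by the sample labels and 7 weeks old by the protocol. Both electrodes were silicone dummies without wires or contacts. Surgery placed them in the left ear, where the cochlea was opened beside the round window. The eluting electrode held dexamethasone, a synthetic glucocorticoid, in its silicone. No group had surgery without an electrode, so that the surgery and the electrode cannot be told apart.

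LPL is a secreted enzyme that is held on the inner surface of capillaries and splits the triglycerides of circulating lipoproteins, which releases fatty acids for uptake by the cells nearby. Adipose tissue and muscle are its best known sources, and macrophages also make it. FABP5 is a small protein of the cytoplasm that binds long-chain fatty acids and carries them within the cell, and it is known from epidermis, macrophages and Schwann cells. The 2 genes thus act at successive steps, the release of fatty acids outside the cell and their handling inside it. The arrays were hybridized with cDNA of the whole cochlea. In such bulk samples a smaller number of expressing cells and less RNA per cell cannot be told apart.

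The 8 arrays fell into 2 sets that the sample labels do not name, and whether a set marks a hybridization, a scan or a separate run of the signal computation is not given in the sources used here. Replicates 1 and 2 of both electrode groups formed set A, where the median signal was 395 to 405. Replicate 3 of both electrode groups formed set B together with the controls, where it was 308 to 325. The sets were read from signal values that recur exactly on more than 1 array, of which a pair of arrays had 246 to 384 in common within a set and 30 to 52 across sets. All control arrays lay in set B, so each comparison is also given within a set. A normalized signal below is the deposited signal after quantile normalization of the log2 values over all 8 arrays, in arbitrary units.

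Compared with the untreated cochlea, the LPL signal was higher in every implanted animal, whichever electrode was inserted. The deposited LPL signal was 161 in CNT replicate 1 and 131 in CNT replicate 2. In NOR it was 2302, 2579 and 3014 in replicates 1, 2 and 3. In DEX it was 1657, 1690 and 887 in replicates 1, 2 and 3. The 3 groups did not overlap, with every NOR animal above every DEX animal and every DEX animal above both controls. The distance of NOR from the controls follows from the choice of the gene. In the normalized signals, 2.81% of all features were lower in DEX than in NOR with no overlap of animals. The share of features with all 3 groups separate was not computed. The lowest implanted animal, DEX replicate 3, belongs to the same array set as the controls. The position of LPL among the signals of its own array does not depend on the scaling between arrays, and it showed the same order. LPL lay above 40.9% and 42.8% of the features in the controls, above 61.5% to 66.8% in DEX and above 71.0% to 78.6% in NOR.

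FABP5 was likewise higher in every implanted animal than in the controls, but its NOR and DEX animals overlapped. The deposited FABP5 signal was 265 in CNT replicate 1 and 261 in CNT replicate 2. In NOR it was 2914, 2426 and 2723 in replicates 1, 2 and 3. In DEX it was 2888, 2790 and 1135 in replicates 1, 2 and 3. DEX replicates 1 and 2 thus lay within the range of the NOR animals, and DEX replicate 3 alone lay below it. FABP5 lay above 48.0% and 48.3% of the features in the controls and above 72.0% to 77.0% in NOR. In DEX it lay above 75.1% and 74.3% in replicates 1 and 2 and above 64.6% in replicate 3.

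**Figure D1:**
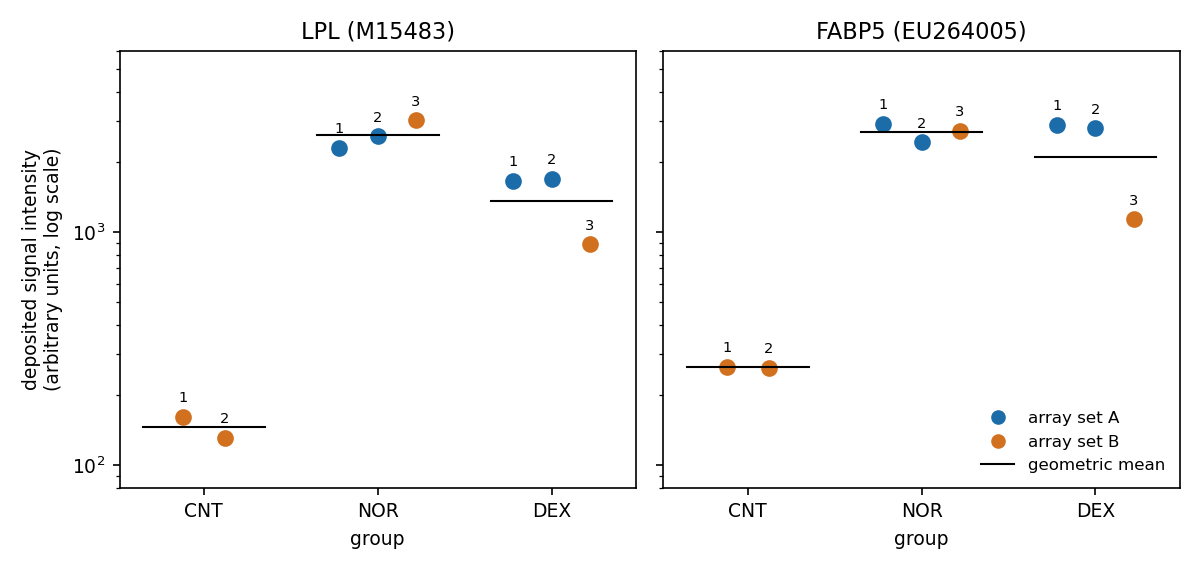
Deposited signal intensity of LPL (left) and FABP5 (right) in each animal, on a log axis, with the replicate number above each point, the array set as colour and the geometric mean of each group as a line. The 3 groups are separate for LPL, and after normalization 2.81% of all features were lower in DEX than in NOR without overlap. For FABP5, DEX replicates 1 and 2 (2888 and 2790) lie among the NOR animals and DEX replicate 3 (1135) lies below them.

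With the normal electrode, LPL showed the highest ratio to the control of all 13269 features. NOR animals had a normalized LPL signal of 2552 ± 695 (SD, n = 3), against 166 ± 21.1 (SD, n = 2) for the controls. The fitted log2 difference was 3.91 (SE 0.26, limma), a ratio of 15.1. Single NOR animals lay 12.3, 13.8 and 20.2 times above the control mean in replicates 1, 2 and 3, so that the range between them was small beside the distance to the controls. The highest of these ratios, that of NOR replicate 3, comes from the array set of the controls. In that set alone the log2 difference was 4.34.

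FABP5 was the feature with the 14th highest ratio of NOR to CNT. NOR animals had a normalized FABP5 signal of 2592 ± 424 (SD, n = 3), against 300.4 ± 6.54 (SD, n = 2) for the controls. The fitted log2 difference was 3.10 (SE 0.31, limma), a ratio of 8.55. Single NOR animals lay 8.70, 7.19 and 10.01 times above the control mean. Within set B the log2 difference was 3.32, and a model that also held the array set gave 2.87. Both genes were thus 2-fold or more higher in NOR with no overlap of animals, a pattern that 1.68% of all features showed and that follows from the way the 2 genes were chosen.

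With the dexamethasone-eluting electrode both genes remained several-fold above the control. The normalized LPL signal in DEX was 1322 ± 279 (SD, n = 3), which is 2.97 above CNT on the log2 scale (SE 0.26, limma), a ratio of 7.86. Single DEX animals lay 8.91, 9.01 and 6.04 times above the control mean of LPL. For FABP5 the normalized signal in DEX was 2142 ± 755 (SD, n = 3), which is 2.76 above CNT on the log2 scale (SE 0.31, limma), a ratio of 6.78. Single DEX animals lay 8.80, 8.36 and 4.24 times above the control mean of FABP5. DEX replicate 3, the lowest for both genes, is the only DEX animal in the array set of the controls. Of all features, 1.42% were 2-fold or more higher in DEX than in CNT with no overlap of animals, among them both genes.

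The ratio of the 2 electrodes addresses whether dexamethasone elution lowered the signals that were high with the normal electrode. LPL was lower in DEX than in NOR in all animals. The log2 difference was -0.94 (SE 0.23, 95% interval -1.47 to -0.41, limma), a ratio of 0.522. With an unadjusted p of 0.00344 in limma, LPL stood 17th among the 13269 features, and its adjusted p was 1.0 after Benjamini-Hochberg adjustment over all of them. In this comparison limma called 0 features at an adjusted p under 0.05, which is 0% of those tested. Without adjustment 329 features passed in limma. The test that the methods state for normal electrode and control was also applied here to the electrodes. It passed 287 features on the normalized signals and 207 on the deposited signals, and 0 after adjustment on either. The study itself also printed p-values for the electrodes, without naming their test. For LPL and FABP5 the methods' test on the deposited signals gave those values to the digits printed. By quantitative RT-PCR on the same samples, the study also reported LPL lower with the dexamethasone-eluting than with the normal electrode. FABP5 was not among its RT-PCR genes. With array weights limma called 3 features, and LPL was not among them (adjusted p = 0.0942). The NOR and DEX animals did not overlap, and an exact permutation test (2-sided) gave p = 0.1, which is as low as 3 animals against 3 can reach. Among all features, 2.81% (373) were lower in DEX with no overlap of animals. This count fell to 228 with median centring. It lay between 767 and 1147 with a NOR or DEX animal left out, where fewer animals must be separated. LPL was chosen for high signals in the same NOR animals, so this comparison is not independent of the choice.

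The FABP5 difference between the electrodes was within the spread between animals. The log2 difference of DEX against NOR was -0.33 (SE 0.27, limma adjusted p = 1.0), a ratio of 0.793. The 95% interval of this ratio, from 0.511 to 1.23, includes a fall like that of LPL. In the exact permutation test over the 6 animals p was 0.6. The difference rested on DEX replicate 3, without which the log2 difference was 0.00. With array weights in limma it turned to 0.15 (adjusted p = 0.663).

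The comparison of the electrodes was repeated within each array set. In set A, with 2 animals per electrode, the log2 difference of DEX against NOR for LPL was -0.54, a ratio of 0.689, and the animals did not overlap. Set B holds a single animal for each electrode, so its value has no replicate, and there the LPL difference was -1.74, a ratio of 0.299. For FABP5 the difference was 0.12 in set A, where the animals overlapped, and -1.24 in set B. LPL was therefore lower in DEX in each pair of animals of the same set, as were 7.90% of all features, and FABP5 was not. The difference between the sets in the effect of the electrode was -1.20 for LPL and -1.36 for FABP5. Set B contributes 1 animal per electrode to this difference, so that it holds no replication within set B and no p-value is given.

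**Figure D2:**
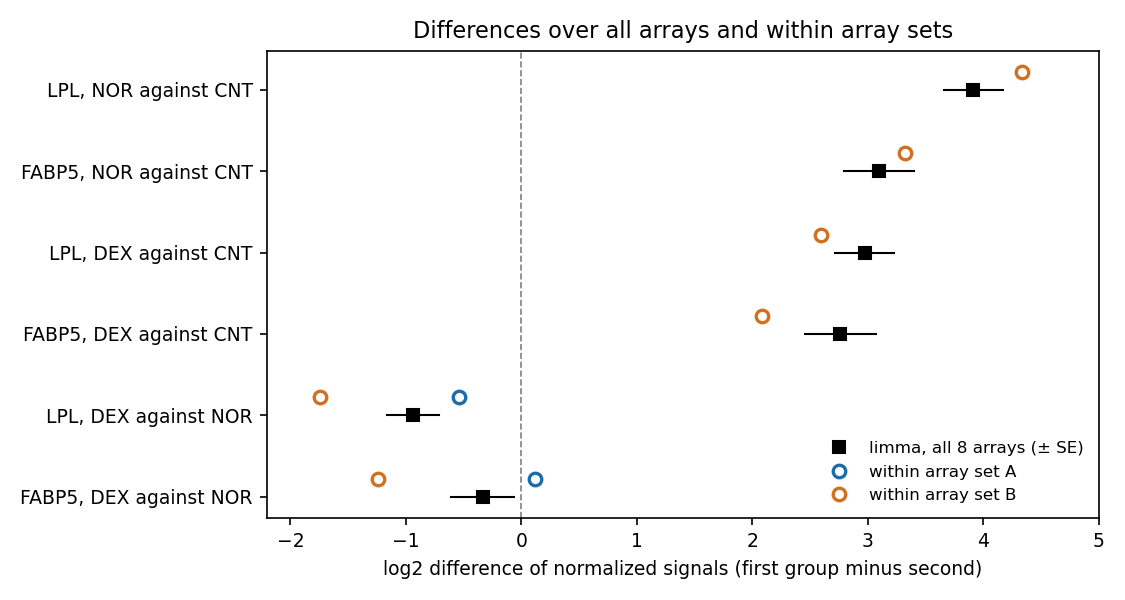
Log2 differences of normalized signals for both genes in the 3 comparisons, as the limma fit over all 8 arrays (squares, with bars of 1 SE) and within array sets (circles, where set B holds 1 NOR and 1 DEX animal). For DEX against NOR the LPL values are -0.54 in set A and -1.74 in set B, and the FABP5 values are 0.12 and -1.24.

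The excess over the control mean was also compared directly. The mean LPL excess in DEX was 48.5% of that in NOR, with 54.8%, 55.6% and 34.95% in DEX replicates 1, 2 and 3. The mean FABP5 excess in DEX was 80.4% of that in NOR, with 102.2% and 96.4% in DEX replicates 1 and 2 and 42.5% in DEX replicate 3. Against NOR replicate 3 alone, which shares its array set, DEX replicate 3 had 26.3% of the excess for LPL and 36.0% for FABP5. These shares were taken on the linear scale of the normalized signals. On the log2 scale the mean difference from the control in DEX was 76.0% of that in NOR for LPL and 89.2% for FABP5, so that the distance between the genes depends on the scale.

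Whether the 2 genes differed in their response to the electrode type was tested within each array, as the log2 signal of LPL minus that of FABP5, set to 0 at the control mean. In NOR the values were 0.49, 0.94 and 1.01 in replicates 1, 2 and 3. In DEX they were 0.02, 0.11 and 0.51, so that DEX replicate 3 lay just above NOR replicate 1. These 2 animals belong to different array sets, and within each set every DEX animal lay below every NOR animal. The overlap also depended on the normalization. With the signals as deposited, and equally with median centring, DEX replicate 3 was at 0.50 and NOR replicate 1 at 0.52, and with cyclic loess they were at 0.49 and 0.50. The controls lay at 0.15 and -0.15. NOR averaged 0.82 ± 0.28 (SD, n = 3), while DEX averaged 0.21 ± 0.26 (SD, n = 3), a difference of -0.60. An exact permutation test (2-sided) gave p = 0.2 with quantile normalization and p = 0.1, the lowest it can reach, with each of the other 3 scalings. This permutation exchanged animals across the array sets. Since both genes were chosen for high signals in the same NOR animals, and LPL had the higher ratio there, this test is not independent of the choice either. The difference was -0.66 in set A and -0.50 in set B, so that the sets lay closer together for the ratio of LPL to FABP5 than for either gene, a difference between sets that was not tested.

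The spread between animals of a group depended on the normalization for LPL. In the deposited signals LPL had a coefficient of variation of 13.6% in NOR and 32.2% in DEX, and in the normalized signals 27.2% in NOR and 21.1% in DEX, so that the order of the groups turned. FABP5 varied more in DEX on both scales, with 9.16% in NOR and 43.4% in DEX as deposited and 16.3% and 35.2% after normalization. The median over all features was 15.3% in NOR and 13.9% in DEX as deposited, and 12.8% and 11.2% after normalization. The variation of FABP5 in DEX, which includes the low signal of DEX replicate 3, was above that of 97.4% of all features as deposited and 95.8% after normalization. No difference in spread was tested. Over the 6 implanted animals Pearson's r between the log2 signals of LPL and FABP5 was 0.732 (2-sided exact permutation test, p = 0.121) and Spearman's rho was 0.486 (exact permutation p = 0.356), the only relation of this kind that was computed. Without NOR replicate 3 and DEX replicate 3, the animals farthest from the median of LPL, r was -0.680 over the 4 animals of set A. With the other 3 scalings r was between 0.745 and 0.782, rho between 0.0857 and 0.600, and r in set A between -0.725 and -0.623. A positive relation was thus not shown, and its sign rested on the 2 implanted animals of set B.

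The features whose pattern was nearest to each gene were found by the root mean square difference of the log2 normalized signals over the 8 arrays, after the control mean was subtracted from each feature. FABP5 had 11 features within 0.25 of it among the other 13268, and LPL had 0. The nearest to FABP5 were EB370169 at a distance of 0.09, EB372154 at 0.13, EB372153 at 0.14, EL937895 at 0.14 and EL937254 at 0.14. All 11 are among the 12497 features whose accessions begin with EL or EB and which carry no gene name in the files. Whether some of them represent the FABP5 transcript itself was not tested. In EB370169 the deposited signals were 2713, 2526 and 2879 in NOR, 2724, 2776 and 1261 in DEX, and 250.2 and 271.0 in CNT. This feature thus repeats the low value of DEX replicate 3, next to DEX replicates 1 and 2 that lie among the NOR animals.

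The 11 features moved between animals as FABP5 did. Their log2 difference of NOR against CNT was between 2.94 and 3.25, with a median of 3.04. Their difference of DEX against NOR had a median of 0.09 in set A, with 1 of the 11 below 0, and a median of -1.30 in set B, with all 11 below 0. Since the 11 were picked for their likeness to FABP5, their values describe the pattern and do not support it independently.

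The nearest feature to LPL was EL937553 at a distance of 0.39, followed by EB371946 at 0.44, EB372153 at 0.46, EL937937 at 0.51 and EB370169 at 0.52. FABP5 came 6th at 0.56, while LPL was only the 19th nearest feature to FABP5. In EL937553 the deposited signals were 560, 592 and 728 in NOR, 708, 369 and 381 in DEX, and 62.8 and 38.6 in CNT, so that DEX replicate 1 lay within the range of NOR. The difference of DEX against NOR in set A was -0.15 for EL937553, 0.15 for EB371946, 0.06 for EB372153, -0.20 for EL937937 and 0.09 for EB370169. In each of these 5 the size was below that of LPL in the same set, which was -0.54.

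**Figure D3:**
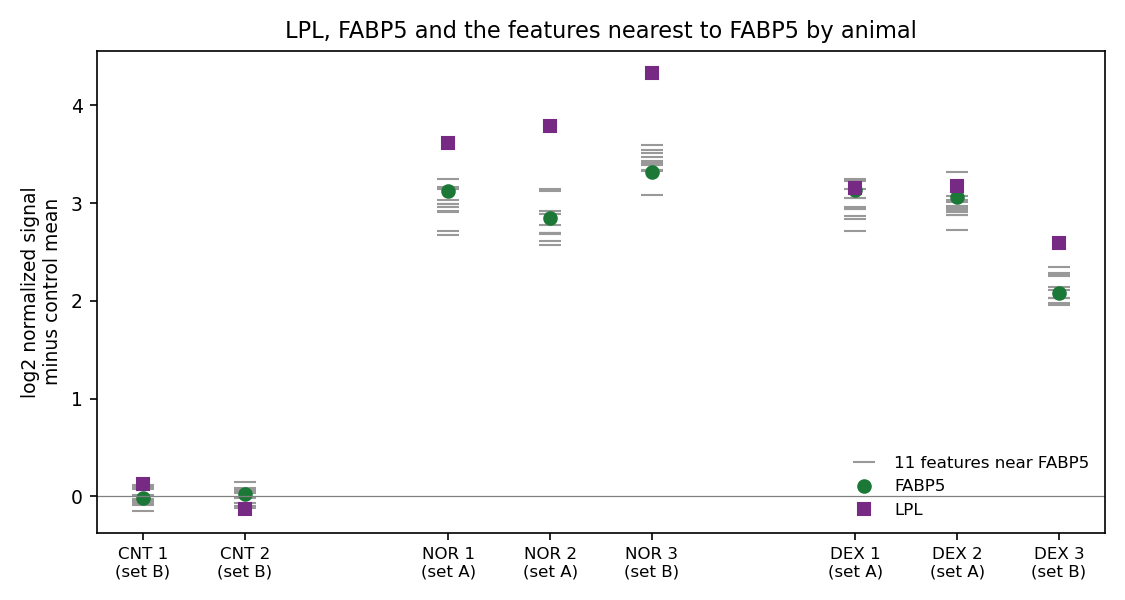
Log2 normalized signal minus the control mean in each animal for LPL (squares), FABP5 (circles) and the 11 features within 0.25 of FABP5 (grey dashes), with the array set under each animal. The grey features follow FABP5, including its low value in DEX replicate 3, and LPL lies above them in NOR and close to them in DEX replicates 1 and 2.

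Other genes of fatty acid handling could not be named among the features. A gene could be named only where the study printed its group averages, so a missing match does not show that the array lacks the gene. Of 42 genes of lipid uptake and handling that were listed for this purpose, among them CD36, GPIHBP1, ANGPTL4 and FABP4, only LPL and FABP5 could be matched to a feature. Of 15 regulators of lipid genes, HIF1A and HSD11B1 could be matched. HIF1A, the oxygen-regulated subunit of a transcription factor of the response to hypoxia, had normalized signals of 415, 360 and 607 in NOR, 343, 298 and 283 in DEX, and 205 and 203 in CNT. Like LPL it was lower in every DEX animal than in every NOR animal, with a log2 difference of -0.55 that was not called (limma adjusted p = 1.0). HSD11B1, which regenerates active glucocorticoid within cells and was read as the average of 2 features, had normalized signals of 84.6, 101.6 and 96.6 in NOR, 114.6, 125 and 94.3 in DEX, and 40.1 and 35.8 in CNT. It overlapped between the electrodes. A lower signal in DEX without overlap, as in HIF1A, was shown by 2.81% of all features, a share that depended on the scaling and on the animals included. Neither feature is independent evidence, since both stand in the study's own list of genes raised in NOR.

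Macrophages are a known source of LPL and FABP5, and 8 entries of a list of monocyte and macrophage genes could be matched. They were 3 Fc-gamma receptor features, the chemokine CCL2, the adhesion glycoprotein Mo1-alpha, the oxidase subunit CYBA and the receptors C3AR1 and GPR34. Defining markers such as CD68, CD14 and CSF1R could not be matched to a feature. The summed normalized signal of the 8 entries was 4727 and 4617 in CNT, 10630, 9722 and 16622 in NOR, and 14289, 16920 and 12268 in DEX. It was thus above the controls in every implanted animal and overlapped between the electrodes. Much of the sum came from Fc-gamma receptor features, of which the highest had 4638 in DEX replicate 2 and 1515 in NOR replicate 2. None of the 8 entries was at 0 in any array, and all 8 come from the study's list of genes raised in NOR, so that their direction against CNT is not independent evidence.

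The entries were also compared between the electrodes within each array set. In set A, 7 of the 8 entries were higher in DEX than in NOR, with a median log2 difference of 0.63 and a range from -0.07 to 1.36, where the LPL difference was -0.54 and that of FABP5 0.12. The Fc-gamma receptor features, which the study lists under the same receptor precursor, gave 1.12, 1.06 and 1.36 there. The remaining entries lay between -0.07 and 0.86, so the 8 entries are not 8 separate genes. In set B all 8 were lower in DEX, with a median of -0.50, next to -1.74 for LPL and -1.24 for FABP5. The part of macrophage number in the signals of LPL and FABP5 was not tested. Adipocyte, Schwann cell, skeletal muscle and cochlear markers could not be matched to features, so that the tissue label itself could not be checked against its own genes.

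**Figure D4:**
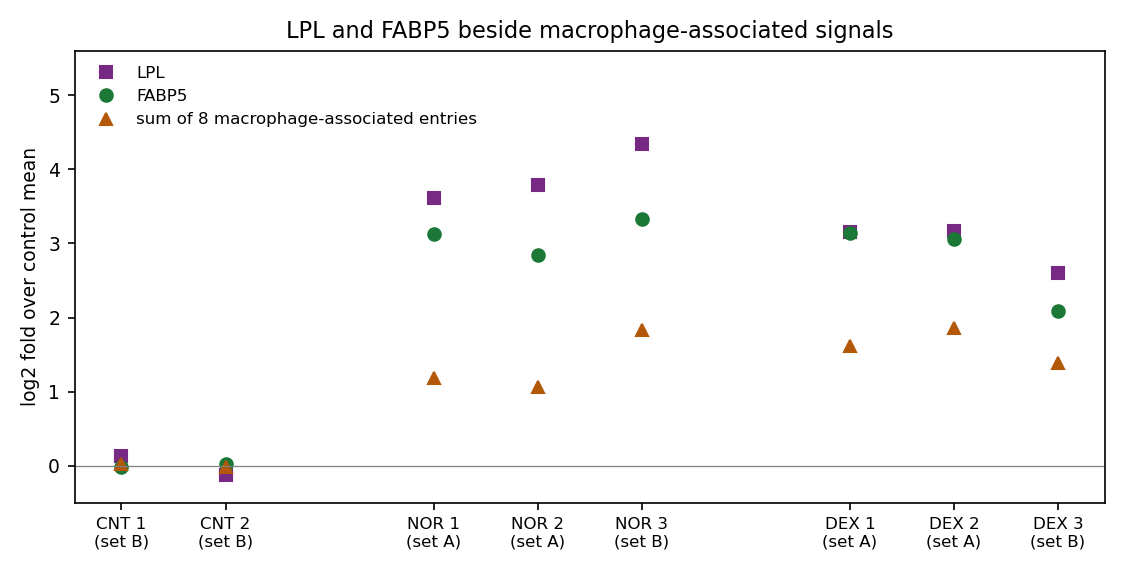
Log2 fold over the control mean in each animal for LPL (squares), FABP5 (circles) and the summed signal of 8 macrophage-associated entries (triangles), with the array set under each animal. The summed signal is higher in DEX replicates 1 and 2 (14289 and 16920) than in NOR replicates 1 and 2 (10630 and 9722), whereas LPL is lower there. In set B the summed signal is lower in DEX replicate 3 (12268) than in NOR replicate 3 (16622), as LPL is.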

How the data were processed

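Cochlear RNA of 8 guinea pigs was labeled with Cy3 and hybridized to 1-color NimbleGen arrays, 1 per animal. The authors deposited linear signal intensity values, extracted from scans with Agilent software, for 13269 features with 0 missing values. By the methods the probes of each gene were analyzed together, but some genes stand as 2 separate deposited features. RMA is named in the submitters' processing notes without its role. The largest difference of a log2 quartile or median between arrays was 0.39, and log2 signals were quantile-normalized. A limma model of the 3 groups was fitted to all features, with Benjamini-Hochberg adjustment over all of them and calls at an adjusted p under 0.05. Features carry GenBank accessions, of which 0 matched the reference gene table, and no sequence or position is given. Genes were named by matching the study's printed group averages to the last digit, to a single feature for LPL and for FABP5, and to the average of 2 features for C3AR1, GPR34 and HSD11B1.

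The members and lists were chosen with earlier results of these data known. The named features are LPL, FABP5, the 5 features nearest to each by root mean square difference and the matched genes of the lists. Arrays that shared at least 150 exactly equal signal values were joined into a set. Whether replicate numbers pair the animals was checked by the correlation of NOR and DEX residuals across features. It was 0.221, 0.360 and 0.526 for equal numbers, each above 0.1, but also 0.205 and 0.328 for different numbers of the same array set, and between -0.436 and -0.272 across sets. The replicate block was therefore run as an alternative.

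For single values, exact permutation tests (2-sided) were run over animals. Alternatives were other normalizations, a filter on low signals, a floor of 20, linear averages, other variance models, array weights, the replicate block, the array set as a term, the methods' test and leaving out each animal. On simulated data of 13269 features with 200 changed between NOR and DEX, the limma procedure recovered 98.5% of changes of 2 on the log2 scale with 11 false calls, and 77.5% of changes of 1 with 5 false calls. The simulated noise was drawn independently for each feature and array and held no array sets. These recovered shares therefore do not give the power of the comparison on the real arrays. The precision is that of this small number of arrays, and no other number was simulated. R 4.3.3 and limma 3.58.1 were used.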

Additional observations from a re-analysis of the deposited data

How the results depend on the processing

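LPL stayed lower in DEX than in NOR under all 25 alternatives. Leaving out an animal could hardly reverse this, since the NOR and DEX animals did not overlap, and several other alternatives left the difference itself unchanged. No limma alternative called LPL, with adjusted p between 0.0942 (array weights) and 1.0. The methods' test without adjustment passed its threshold for LPL with a log2 ratio of -0.95 on the normalized signals and -0.90 on the deposited signals, the latter added after the data were seen. It called 287 and 207 features, and 0 on either after Benjamini-Hochberg adjustment. Array weights called 3 features. With the replicate block the LPL difference was -0.94 (limma adjusted p = 0.968), and the block changed no call. The sets alone, chosen as alternatives after the data were seen, gave -0.54 (A) and -1.74 (B) for LPL, and 0.12 and -1.24 for FABP5. The FABP5 difference of DEX against NOR reversed to 0.15 with array weights, and it lay between -0.52 and 0.00285 with each animal left out, the highest without DEX replicate 3. Set B alone gave 4.34 (LPL) and 3.32 (FABP5) for NOR against CNT and 2.60 and 2.08 for DEX against CNT. FABP5 in NOR against CNT was 3.35 with the signals as deposited, 2.92 with array weights and 2.87 once the model held the array set. The count of features 2-fold or more higher in NOR without overlap moved to 344 with the signals as deposited, where all features had a median log2 shift of 0.15 towards NOR. The count lower in DEX without overlap moved from 373 to 228 with median centring, and to between 373 and 1147 with an animal left out, where fewer animals must be separated. This count was 1062, 800 and 1033 without NOR replicates 1, 2 and 3, and 767, 919 and 1147 without DEX replicates 1, 2 and 3. The difference of LPL minus FABP5 kept its direction in its 17 alternatives, and its groups were separate with the signals as deposited, median centring and cyclic loess. The cause of the other changes was not tested.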
